A study of Saccharomyces cerevisiae with 25 samples.

Results

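The genes that encode IMP dehydrogenase in yeast, *IMD1* (YAR073W), *IMD2* (YHR216W), *IMD3* (YLR432W) and *IMD4* (YML056C), and the gene for the enzyme that follows it, *GUA1* (YMR217W), were followed across 5 strains. These are 5 of the 6713 genes listed in the data. They were chosen by the levels of *IMD2*, which in the wild type YFA1130 differed from those in several other strains, so the difference of *IMD2* from YFA1130 is given as a description and was not tested. The other genes of the group were added for their place in the same pathway.

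IMP dehydrogenase turns inosine monophosphate (IMP), the shared precursor of adenine and guanine nucleotides, into xanthosine monophosphate, which is the committed step towards GTP. The GMP synthetase encoded by *GUA1* then aminates that product to GMP. *IMD2* encodes the isoform that resists the drug mycophenolic acid, and its transcription is known to rise when guanine nucleotides are scarce, through a choice among transcription start sites and early termination by the Nrd1 complex. *IMD3* and *IMD4* encode isoforms that are made constitutively. *IMD1* lies near the end of chromosome I and is interrupted by a frameshift in laboratory strains.

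All strains were haploid derivatives of BY4741 (*MATa his3Δ1 leu2Δ0 met15Δ0 ura3Δ0*) made with CRISPR-Swap, which exchanges a marker or tag for an allele by Cas9 cutting. YFA1130 is a wild type in which the GFP tag was removed from *FAA4*, and YFA1131 is a wild type in which the BY allele of *RGT2* was put back in place of *rgt2Δ::kanMX6*. The edited strains carry an allele of the vineyard strain RM, at *RGT2(V539I)*, at *OAF1(L63S)* or in the FAR element of the *OLE1* promoter, here *OLE1(FAR)*. Each strain was 1 line of cells, so the edit cannot be told apart from any other difference that line may carry. From each strain 5 cultures were grown in YNB medium with glucose and supplements, and their poly-A RNA was sequenced, which gave 25 libraries with 9216531 to 14644996 estimated counts. Among the markers of the background, *LEU2*, *URA3* and *MET17*, the gene of the *met15* deletion, were at 0 in every library, and *STE2*, the receptor gene of *MATa* cells, was at 1077 to 1323 CPM, the estimated counts per 1000000 of a library after TMM scaling. *HIS3*, of which *his3Δ1* removes only a part, was at 79.7 to 125 CPM. The other *MATa* genes looked at, *MFA1* and *MFA2*, were at 0 in every library. The study also filtered genes by kallisto's effective length, which is not known here for these genes. Their zeros are therefore not read against the *MATa* label, and the reason was not tested. The *MATalpha* genes *STE3* and *MF(ALPHA)1* were low but above 0, at 2.18 to 6.25 and 0.328 to 2.37 CPM.

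The genes differ in how well reads can be assigned to them. In the R64 reference (sacCer3), *IMD2* lies on chromosome VIII from 554396 to 555967 on the forward strand, 6676 bases from the right end of the chromosome. *IMD3* is on chromosome XII from 1002557 to 1004128 on the forward strand, and *GUA1* on chromosome XIII from 701790 to 703367, also forward. *IMD4* is on chromosome XIII from 162194 to 164176 on the reverse strand and is the member with an intron, of 408 bases (163309 to 163716). *IMD1* has no gene record in the RefSeq annotation used here, but a copy of the *IMD2* coding sequence was found on chromosome I from 227742 to 229317, forward strand. It is 96.3% identical to *IMD2*, with 4 gap columns in 1576, and its first in-frame stop is at codon 404. Beside it, *PHO11* on chromosome I (225460 to 226863) and *PHO12* on chromosome VIII (552099 to 553502) form a second duplicated pair.

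Identity to *IMD2* over the coding sequence was 88.9% for *IMD3* and 79.2% for *IMD4*, and *IMD3* and *IMD4* were 82.5% identical to each other. A stretch where the members differ most and one where they are most alike are shown because they mark how far the coding sequences part and how nearly they coincide. Capitals mark the bases that differ from *IMD2*. In the most different stretch, bases 448 to 477 of the *IMD2* coding sequence, the chromosome I copy differed from *IMD2* at 1 base, *IMD3* at 9 and *IMD4* at 14:
IMD2: cctgtcacgacagatggaaagagaaatgca
Chromosome I copy: cctgtcacgGcagatggaaagagaaatgca
IMD3: ccCgtTacAGAagatggTaaAagaaaCgGa
IMD4: ccAgtTacTGAagaCggTaagTgTCCAgGT
In the most alike stretch, bases 1486 to 1515, the chromosome I copy and *IMD4* both read as *IMD2* does, and *IMD3* differed at 1 base:
IMD2: gttagatttgaattcagaaccgcttctgct
IMD3: gttagatttgaattTagaaccgcttctgct

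**Figure D1:**
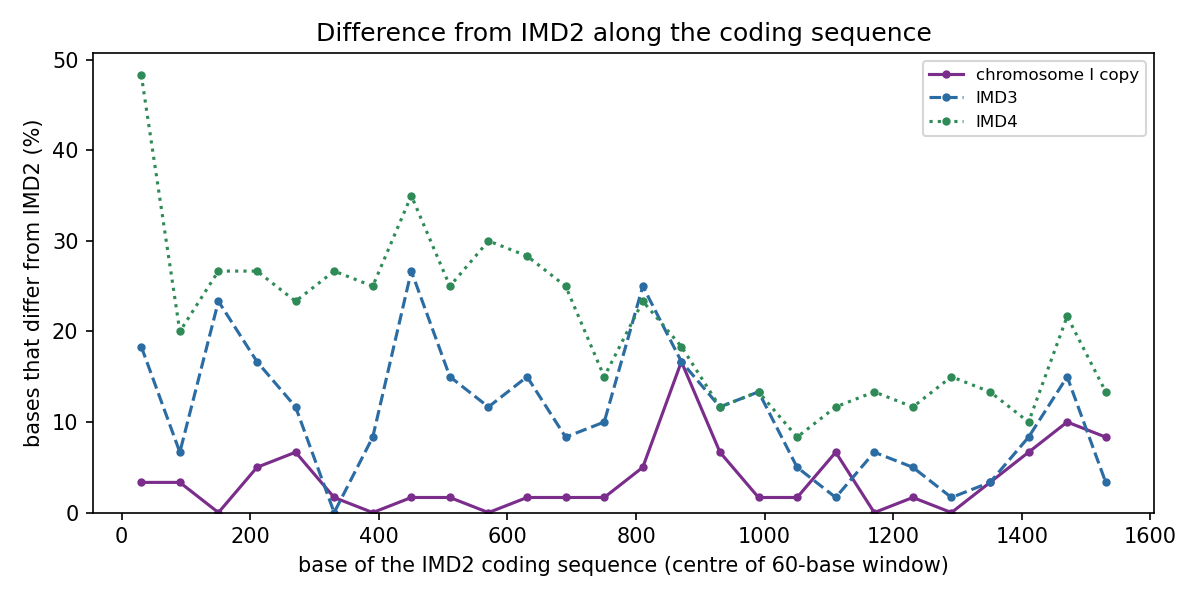
Percentage of bases that differ from *IMD2* in consecutive windows of 60 bases along its coding sequence, for the chromosome I copy, *IMD3* and *IMD4*. The chromosome I copy differed at 0 to 16.7% of bases (median 1.67%), *IMD3* at 0 to 26.7% (median 10.8%) and *IMD4* at 8.33 to 48.3% (median 20.8%).

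These differences bear on the counts, since kallisto assigns a read by the transcripts its short words match. Of the 1542 words of 31 bases in the *IMD2* coding sequence, 774 (50.2%) occurred in *IMD2* alone, 690 were shared with the chromosome I copy, 188 with *IMD3* and 5 with *IMD4*. The share of words found in 1 gene alone was 73.5% for *IMD3*, 89.1% for *IMD4* and 100% for *GUA1*, which has no relative among these genes. Among all windows of 76 bases, the read length, 77.1% of those in *IMD2* held at least 1 word found there alone, a share that reached 97.1% when the chromosome I copy was set aside. Estimated counts were not whole numbers in 25 of 25 libraries for *IMD2*, 22 for *IMD3*, 24 for *IMD4* and 0 for *GUA1*. The levels of the IMP dehydrogenase genes therefore hold some reads divided among them by estimation, and that of *GUA1* does not.

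*IMD1* was close to undetected. Its estimated count was 0 in 1 library and at most 7.71 in any, 91.2 over all 25 libraries, or up to 0.779 CPM. A second reading frame of the same locus, YAR075W, was at 0 in 11 libraries and reached 7.15 counts. Because of the zero, *IMD1* did not pass the requirement of a count in every library and was not tested, so 4 of the 5 genes could be compared between strains. Of the 1546 words of 31 bases in the chromosome I copy, 758 (49.0%) occurred there alone. The estimated counts do not show which words were read, so from them its few counts cannot be told apart from reads of *IMD2* that were assigned to it.

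Per coding length, *IMD3* was the most abundant of the group, at 843 ± 81.9 CPM per kilobase (SD, n = 25 libraries). *GUA1* followed at 755 ± 88.1, then *IMD4* at 600 ± 72.4 (both SD, n = 25 libraries). *IMD2* was the least abundant of the 4 genes tested, at 291 ± 35.9 CPM per kilobase (SD, n = 25 libraries). Among *IMD2*, *IMD3* and *IMD4*, the inducible isoform thus had the lowest level per length in this medium. Its share of the 3 together, each per coding length, was 16.8% ± 1.28 (SD, n = 25 libraries).

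Before the strains are compared, 2 libraries have to be named, because their expression went against their labels. In the library labelled *OAF1(L63S)* replicate 2, *MGA2*, the activator of *OLE1*, reached 289 CPM where its 4 companions had 101 to 128, *IZH4* was at 47.6 where they had 2.63 to 3.67, and *POX1*, the peroxisomal acyl-CoA oxidase gene, was at 1.58 where they had 17 to 22.8. In the library labelled *OLE1(FAR)* replicate 3, the same genes were at 119 CPM (281 to 315 in its companions), 2.43 (45.3 to 50.7) and 28.4 (0.419 to 2.00). The values in the first library lie within those of the 4 *OLE1(FAR)* companions, and the *MGA2* value in the second lies within those of the 4 *OAF1(L63S)* companions. Whether the samples were exchanged was not tested. Both libraries stayed under their labels in the comparisons that follow, so each value of *OAF1(L63S)*, of *OLE1(FAR)* and of the harvest batches carries this doubt, and the tests of the members are also given without them.

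Across the 5 cultures of YFA1130, *IMD2* was at 414, 419, 323, 412 and 450 CPM in replicates 1 to 5, a mean of 403 ± 47.8 (SD, n = 5). In YFA1131 it was at 409, 470, 370, 448 and 504 CPM, a mean of 440 ± 52.2 (SD, n = 5). The wild types overlapped, with 2 of the YFA1131 libraries above every YFA1130 library. In *RGT2(V539I)*, *IMD2* was at 399, 477, 527, 499 and 455 CPM, a mean of 471 ± 48.3 (SD, n = 5). In *OLE1(FAR)*, it was at 509, 507, 397, 503 and 495 CPM, a mean of 482 ± 48.2 (SD, n = 5), where the low value is that of replicate 3, 1 of the 2 libraries named above. Without it the mean was 504 ± 6.30 (SD, n = 4), and all 4 libraries were above the highest of YFA1130. In *OAF1(L63S)*, *IMD2* was at 529, 491, 489, 540 and 397 CPM, a mean of 489 ± 56.3 (SD, n = 5), and at 489 ± 65.0 without replicate 2 (SD, n = 4). The strain means thus ran, from low to high, in the order YFA1130, YFA1131, *RGT2(V539I)*, *OLE1(FAR)*, *OAF1(L63S)*, and the ranges of neighbouring strains overlapped. Without the 2 libraries named above, *OLE1(FAR)* (504) came above *OAF1(L63S)* (489). These means are not adjusted for the batch of cell harvest, and *OLE1(FAR)* had no library in harvest batch 1.

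**Figure D2:**
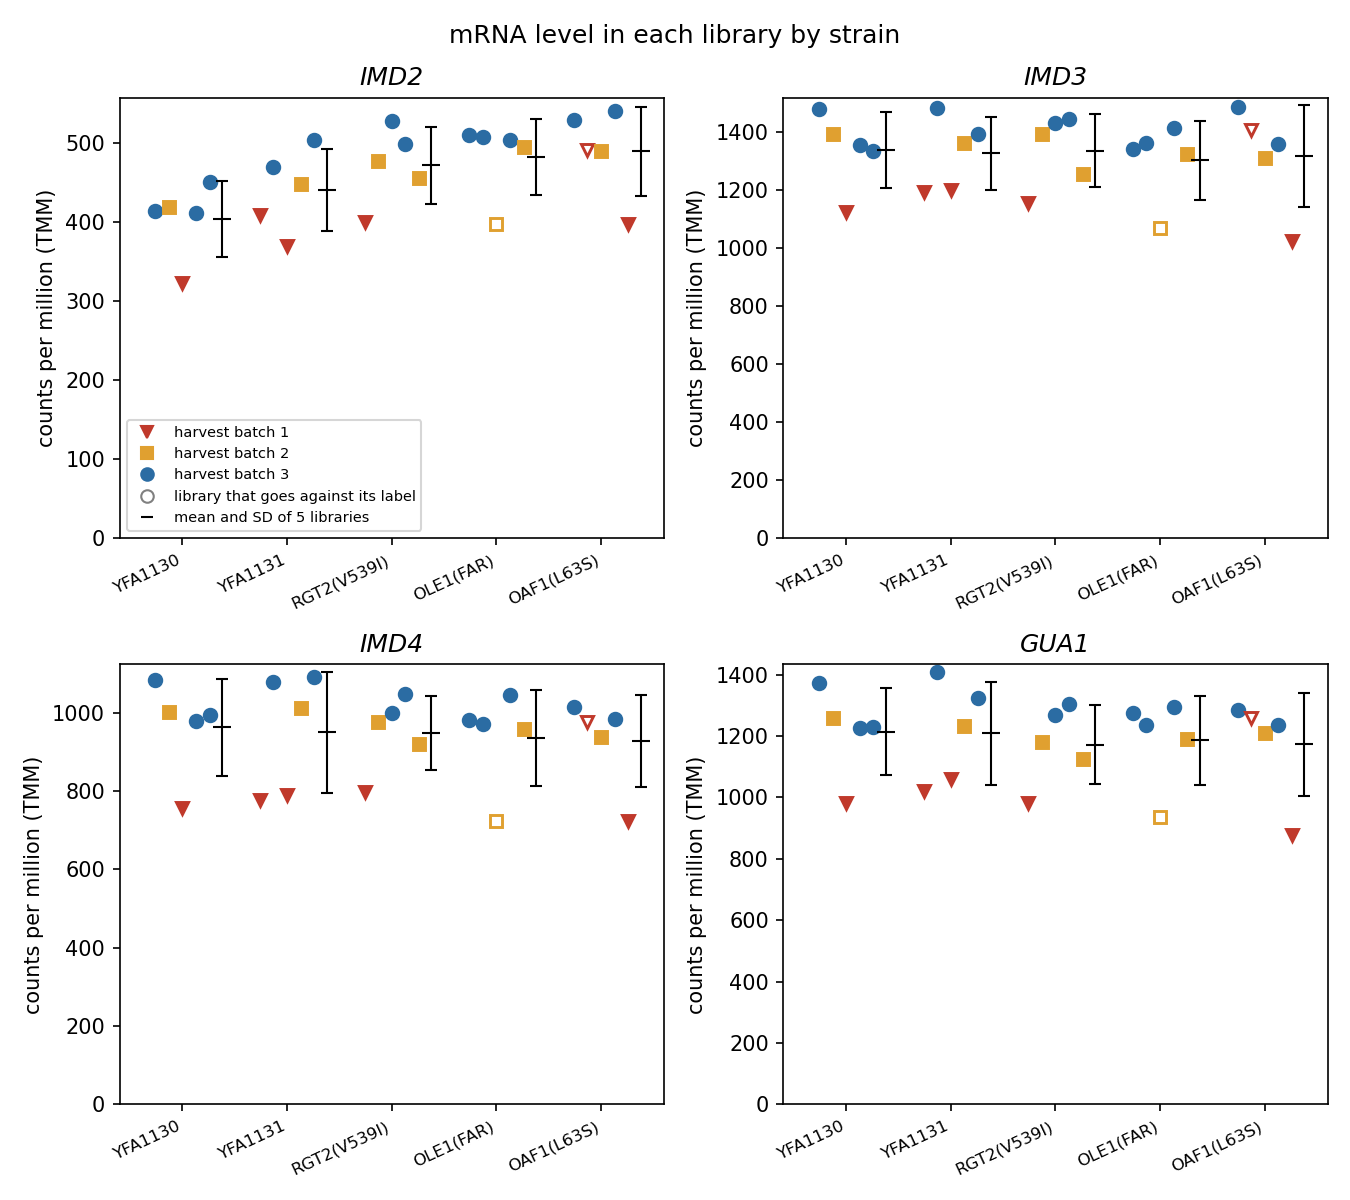
CPM of *IMD2*, *IMD3*, *IMD4* and *GUA1* in each of the 25 libraries, by strain, with the batch of cell harvest as colour and marker, open markers for the 2 libraries that go against their labels, and bars for the mean and SD of 5 libraries. Strain means ran from 403 to 489 CPM for *IMD2*, from 1304 to 1338 for *IMD3*, from 927 to 962 for *IMD4* and from 1172 to 1214 for *GUA1*, and harvest batch 1 held low values of all 4 genes.

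The other isoforms and *GUA1* did not follow that order. *IMD3* was at 1481, 1394, 1125, 1358 and 1335 CPM in YFA1130, a mean of 1338 ± 132 (SD, n = 5), and its means in the other strains were between 1304 and 1337. *IMD4* was at 1084, 1002, 755, 978 and 993 CPM in YFA1130, a mean of 962 ± 123 (SD, n = 5), with means of 927 to 950 elsewhere. *GUA1* was at 1374, 1258, 983, 1226 and 1231 CPM in YFA1130, a mean of 1214 ± 143 (SD, n = 5), and at means of 1172 to 1209 elsewhere. YFA1130, lowest for *IMD2*, had the highest mean of the 5 strains for each of these 3 genes, by margins smaller than the SD. That rank depended on *OLE1(FAR)* replicate 3, which goes against its label. Without it the *OLE1(FAR)* means were 1362 CPM for *IMD3*, 988 for *IMD4* and 1248 for *GUA1*, each above that of YFA1130. Leaving out the pair of *IMD2* means that includes YFA1130, the 15 pairs of neighbours in the order of means differed by at most 0.10 on the log2 scale, less than the SD between libraries of a strain, which was 0.16 to 0.20 for these genes. Neighbours in such an order are the smallest differences by construction, and this SD includes the harvest batches. Nothing about a difference between strains is read from it.

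Since *IMD2* and *IMD3* have coding sequences of the same length, 1572 bases, their ratio in a library is also the ratio per length, and it removes what a library changes in both. The ratio of *IMD2* to *IMD3* was 0.279, 0.301, 0.287, 0.303 and 0.337 in the YFA1130 libraries, a mean of 0.301 ± 0.022 (SD, n = 5). It was 0.343, 0.317, 0.308, 0.329 and 0.362 in YFA1131, a mean of 0.332 ± 0.021 (SD, n = 5). The mean was 0.352 ± 0.012 in *RGT2(V539I)*, 0.370 ± 0.0088 in *OLE1(FAR)* and 0.372 ± 0.020 in *OAF1(L63S)* (SD, n = 5 each). Of the 20 libraries of the other strains, 17 had a higher ratio than every YFA1130 library, and 4 of the 5 YFA1130 libraries were below all 20. The libraries labelled *OLE1(FAR)* replicate 3 (0.371) and *OAF1(L63S)* replicate 2 (0.349) were both above the YFA1130 range. The share of *IMD2* in the mRNA of the 3 isoforms was 14.9% ± 0.834 in YFA1130 and 17.9% ± 0.686 in *OAF1(L63S)* (SD, n = 5 each). By contrast, the ratio of *IMD4* to *IMD3* was 0.703 to 0.716 and that of *GUA1* to *IMD3* was 0.872 to 0.905 over the 5 strain means. The ratios of *IMD2* describe the same difference that chose the gene and were not tested.

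**Figure D3:**
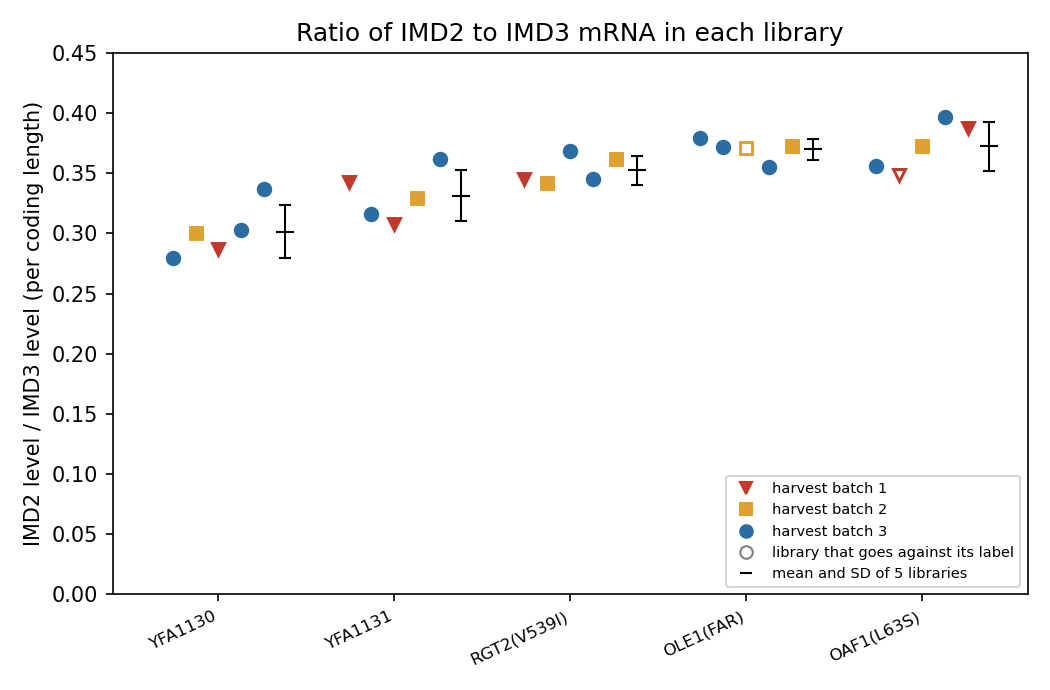
Ratio of *IMD2* to *IMD3* level, per coding length, in each library by strain, with harvest batch as colour and marker, open markers for the 2 libraries that go against their labels, and bars for the mean and SD of 5 libraries. The YFA1130 libraries ran from 0.279 to 0.337 and those of the other strains from 0.308 to 0.397. *OLE1(FAR)* had no library in batch 1, and the other strains had libraries in all 3 batches.

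A model was fitted to all 25 libraries with strain, 2 surrogate variables and the batches of cell harvest, of RNA isolation and of library preparation, and its p-values are those of edgeR's quasi-likelihood test, adjusted by the Benjamini-Hochberg method over the 5713 genes tested. In this model the log2 fold change of *IMD2* over YFA1130 was 0.31 (standard error 0.034) in *OAF1(L63S)*. It was 0.25 (standard error 0.036) in *OLE1(FAR)*, 0.22 (standard error 0.035) in *RGT2(V539I)* and 0.18 (standard error 0.033) in the wild type YFA1131. The edited strains and the second wild type therefore all lay on the same side of YFA1130, and the 4 values share its libraries. Without the 2 libraries that go against their labels the values were 0.32, 0.22, 0.22 and 0.20 in the same order. Within harvest batches, 1 to 3 libraries of a strain could be compared. The difference in mean log2 CPM from YFA1130 was 0.45, 0.22 and 0.33 in *OAF1(L63S)* for batches 1, 2 and 3. It was 0.30 in batch 1 without replicate 2. For *OLE1(FAR)*, which had no library in batch 1, it was 0.081 in batch 2, 0.24 there without replicate 3, and 0.25 in batch 3. For *RGT2(V539I)* it was 0.31, 0.15 and 0.27, and for YFA1131 it was 0.27, 0.098 and 0.20. *IMD2* was higher than in YFA1130 in each of these 11 comparisons within a batch, all of which use the same 5 libraries of YFA1130. They describe the difference that chose the gene and were not tested.

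**Figure D4:**
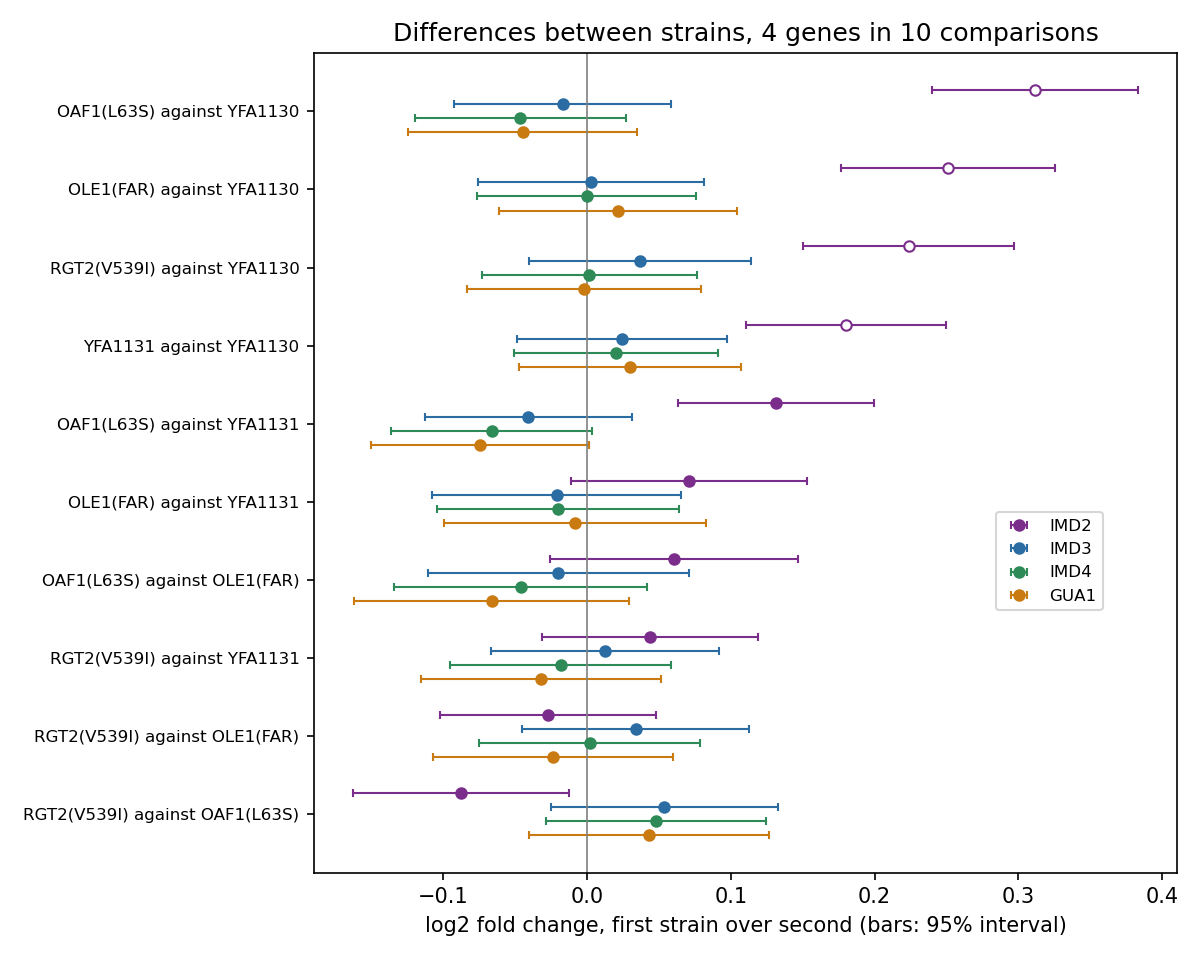
Log2 fold change of each gene in 10 comparisons between strains, with 95% intervals from edgeR's quasi-likelihood fit. Open circles mark *IMD2* against YFA1130, the difference that chose the gene, from 0.18 to 0.31, and the values for *IMD3*, *IMD4* and *GUA1* lie between -0.075 and 0.054.

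Comparisons without YFA1130 were not themselves the ground for choosing *IMD2* and were tested. The libraries of the other strains did enter that choice, through their difference from YFA1130. These tests are therefore not independent of it. In *OAF1(L63S)* against YFA1131, *IMD2* was higher by a log2 fold change of 0.13 (standard error 0.033, 95% interval 0.063 to 0.20, adjusted p = 0.0367 in edgeR), which passed the FDR of 10%, as did 4.18% of all 5713 genes. The ranges of the strains overlapped, 397 to 540 CPM against 370 to 504. The difference in mean log2 CPM within harvest batches 1, 2 and 3 was 0.18, 0.13 and 0.14. It was 0.029 in batch 1 without replicate 2 of *OAF1(L63S)*. With each of the 10 libraries left out in turn, the call held 8 times, and it was lost without replicate 1 of *OAF1(L63S)* (0.12, adjusted p = 0.145 in edgeR) and without replicate 5 of YFA1131 (0.10, adjusted p = 0.129 in edgeR). It was also lost without surrogate variables (0.14, adjusted p = 0.335 in edgeR).

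In the other 5 such comparisons *IMD2* did not pass the FDR. Between *RGT2(V539I)* and its wild type YFA1131, where 1.07% of genes passed, its log2 fold change was 0.043 (95% interval -0.032 to 0.12, adjusted p = 0.994 in edgeR). Between *OLE1(FAR)* and YFA1131, where 0.963% of genes passed, it was 0.071 (-0.011 to 0.15, adjusted p = 0.838 in edgeR). The edited strains also lay close to each other. *OAF1(L63S)* against *OLE1(FAR)* gave 0.060 (-0.026 to 0.15, adjusted p = 0.650 in edgeR), where 3.01% of genes passed. *RGT2(V539I)* gave -0.088 (-0.16 to -0.013, adjusted p = 0.504 in edgeR) against *OAF1(L63S)* and -0.027 (-0.10 to 0.048, adjusted p = 0.883 in edgeR) against *OLE1(FAR)*, where 1.7% and 2.45% of genes passed. The intervals of these 5 comparisons reached 0.15 at the upper end and -0.16 at the lower end. Without the 2 libraries that go against their labels, *IMD2* did not pass in these 5 either, but several values moved. In edgeR, *OLE1(FAR)* against YFA1131 then gave 0.024 (adjusted p = 0.948), *RGT2(V539I)* against YFA1131 gave 0.021 (adjusted p = 0.940) and *OAF1(L63S)* against *OLE1(FAR)* gave 0.096 (adjusted p = 0.487). *RGT2(V539I)* gave -0.099 against *OAF1(L63S)* (adjusted p = 0.413) and -0.0029 against *OLE1(FAR)* (adjusted p = 1.00).

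*IMD3*, *IMD4* and *GUA1* passed the FDR in 0 of 30 tests, over 10 comparisons between strains. In edgeR, 0 of the 30 had an unadjusted p under 0.05, and in DESeq2, taken for these genes in 5 of the comparisons, 0 of 15 passed. Of all 5713 genes, 341 to 893 had an unadjusted p under 0.05 in edgeR, depending on the comparison, and 33 to 137 genes passed in DESeq2. The share of all genes that passed was 1.17% for *OAF1(L63S)* against YFA1130, 0.98% for *OLE1(FAR)* against YFA1130, 0.438% for *RGT2(V539I)* against YFA1130 and 0.158% for the wild types against each other, so that 0 of 3 genes lies near the background in each. Their log2 fold changes lay between -0.075 and 0.054, and the smallest adjusted p was 0.326 in edgeR. In *OAF1(L63S)* against YFA1130, *IMD3* changed by -0.017 (95% interval -0.093 to 0.058), *IMD4* by -0.046 (-0.12 to 0.027) and *GUA1* by -0.045 (-0.12 to 0.035). The value furthest from 0 was that of *GUA1* in *OAF1(L63S)* against YFA1131, -0.075 (-0.15 to 0.0012). There the call depended on the libraries used. Without the 2 libraries that go against their labels, *GUA1* at -0.12 (standard error 0.030, adjusted p = 0.0289 in edgeR) and *IMD4* at -0.11 (standard error 0.034, adjusted p = 0.0896 in edgeR) passed the FDR, as did 7.57% of all genes, while *IMD3* at -0.071 (adjusted p = 0.233 in edgeR) did not, and *IMD2* remained higher at 0.12 (adjusted p = 0.0441 in edgeR). In the other 9 comparisons none of the 3 genes passed without those libraries, the smallest adjusted p being 0.241 for *GUA1* in YFA1131 against YFA1130 (0.077, edgeR).

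All 4 genes differed by the batch of cell harvest in fits without the 2 libraries that go against their labels or without surrogate variables. With those libraries and the surrogate variables in the fit, none passed the FDR, as given below. With the 2 libraries that go against their labels left out, *IMD4* was at 723 to 798 CPM in the 5 libraries of harvest batch 1, at 921 to 1012 in the 6 of batch 2 and at 972 to 1091 in the 12 of batch 3. *GUA1* was at 877 to 1059, 1125 to 1258 and 1226 to 1407 CPM, and *IMD3* at 1024 to 1202, 1257 to 1395 and 1335 to 1487 CPM. *IMD2* was at 323 to 409, 419 to 495 and 412 to 540 CPM. The libraries of batch 1 were below all others for 4 of 4 genes, as they were for 4.08% of the 5713 genes, while batches 2 and 3 overlapped for each. For *IMD2* the gap was narrow, 409 against 412 CPM. Mean levels in batches 1, 2 and 3 were 380, 464 and 489 CPM for *IMD2*, 1140, 1341 and 1408 for *IMD3*, 769, 967 and 1022 for *IMD4* and 984, 1199 and 1288 for *GUA1*. In these 23 libraries, the log2 fold change of batch 1 over the other batches was -0.36 for *IMD2* (standard error 0.049, adjusted p = 0.000165 in edgeR), -0.33 for *IMD3* (standard error 0.048, adjusted p = 0.000275), -0.38 for *IMD4* (standard error 0.051, adjusted p = 0.000151) and -0.42 for *GUA1* (standard error 0.046, adjusted p = 3.6e-05). Thus 4 of 4 genes were called lower, against 8.71% of all 5718 genes tested that were lower and 15.6% that differed either way.

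The 2 libraries also stood apart from the others of their harvest. The library labelled *OLE1(FAR)* replicate 3, from batch 2, held *IMD3* at 1069, *IMD4* at 723 and *GUA1* at 936 CPM, within the range of batch 1. The library labelled *OAF1(L63S)* replicate 2, from batch 1, held them at 1407, 975 and 1258 CPM, above every other library of its batch. With both libraries and 2 surrogate variables in the fit, none of the 4 genes passed the FDR for harvest, and 1.49% of all genes did. The log2 fold change was then -0.13 for *IMD2* (adjusted p = 0.434 in edgeR), -0.019 for *IMD3*, -0.027 for *IMD4* and 0.015 for *GUA1*. With all 25 libraries and no surrogate variables, it was -0.28 for *IMD2*, -0.27 for *IMD3*, -0.35 for *IMD4* and -0.33 for *GUA1*, with adjusted p of at most 0.00104 in edgeR. In that fit 1716 of the 5713 genes were called for harvest.

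Over the 25 libraries, the log2 levels of *IMD3*, *IMD4* and *GUA1* moved together, with Pearson's r of 0.97 for *IMD3* and *GUA1*, 0.98 for *IMD4* and *GUA1* and 0.96 for *IMD3* and *IMD4*. *IMD2* was less close to them, with r of 0.68 to 0.71. Once each strain's own mean was subtracted, r between *IMD2* and the other genes was 0.89 to 0.93. The difference between those values of r holds the low level of *IMD2* in YFA1130, which chose the gene, and nothing is read from it. Without the 2 libraries that go against their labels, r was 0.66 to 0.70 for *IMD2* and 0.95 to 0.97 among the others. These values are descriptions over libraries that share harvests, depth and, for the isoforms, divided reads.

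**Figure D5:**
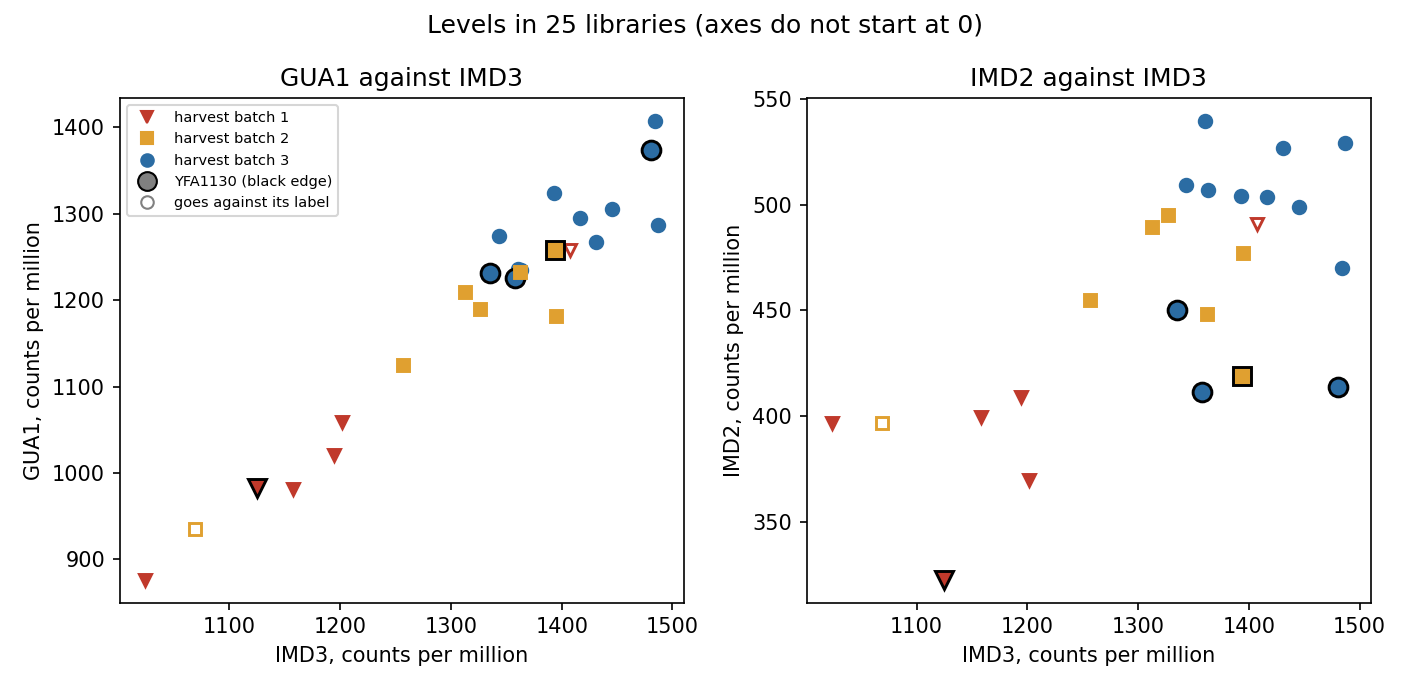
*GUA1* (left) and *IMD2* (right) against *IMD3* in the 25 libraries, all in CPM, with harvest batch as colour and marker, a black edge for YFA1130 and open markers for the 2 libraries that go against their labels. *GUA1* was higher where *IMD3* was higher (r = 0.97 on the log2 scale), and in the *IMD2* panel (r = 0.69) the YFA1130 libraries lie low for their *IMD3* level.

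The genes whose log2 levels were most like each member over the 25 libraries were taken from 4966 genes with a mean of at least 10 CPM. For *IMD2* they were *HXT3*, a low-affinity glucose transporter gene (r = 0.83), *DSE2*, which encodes a daughter cell wall protein (r = 0.81), *ROD1*, an arrestin-like adaptor gene (r = 0.79), *AGP1*, an amino acid permease gene (r = 0.78), and *HEM12*, a haem synthesis gene (r = 0.78). Of these, 4 stayed among the closest 5 without the 2 libraries that go against their labels, and 1 did when strain means were subtracted. For *IMD3* the closest were *SDA1*, needed for export of the large ribosomal subunit (r = 0.98), *CBF5*, the pseudouridine synthase of box H/ACA snoRNPs (r = 0.98), *TYW1*, a tRNA modification gene (r = 0.98), *RRB1*, a chaperone gene for a ribosomal protein (r = 0.98), and *MTR4*, an RNA helicase gene (r = 0.97). For *IMD4* they were *DBP2*, *NUG1*, *NOP7*, *NMD3* and *PWP1* (r of 0.98 each), and for *GUA1* they were *FPR4* (r = 0.99), *RRB1*, *SDA1*, *DPH2* and *CBF5* (r of 0.98 each). The lists of *IMD3* and *GUA1* hold *SDA1*, *CBF5* and *RRB1* in common. For *IMD3*, *IMD4* and *GUA1*, 4 of the 5 genes stayed under each of those alternatives.

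Few other genes of the purine pathway, and none of the factors that act at *IMD2*, passed the FDR between strains. A list of 39 genes held the enzymes from phosphoribosyl pyrophosphate to IMP, the AMP branch, salvage and kinase genes, the regulators of the *ADE* genes and transcription factors that act at *IMD2*. None of the 39 passed in 9 of the 10 comparisons in edgeR. DESeq2, run on 5 of those 9, called 1 of the 39, in *OAF1(L63S)* against *OLE1(FAR)*, where it called 137 of all genes. In those of *OAF1(L63S)*, *OLE1(FAR)* and YFA1131 with YFA1130, 0, 4 and 2 had an unadjusted p under 0.05 in edgeR, as did 341, 453 and 556 of all 5713 genes. The median log2 fold change was -0.012, 0.0054 and 0.019, against -0.0066, 0.0014 and 0.0029 for all genes. Between *RGT2(V539I)* and YFA1131, 1 of the 39 had an unadjusted p under 0.05 in edgeR, as did 383 of all genes. In *OAF1(L63S)* against YFA1131, the comparison in which *IMD2* was called, 1 of 39 rose and 1 fell, near the 4.18% of all genes that passed, with a median of -0.036 against -0.011 for all genes. *YNK1*, the nucleoside diphosphate kinase gene that makes GTP from GDP, rose by 0.18 (standard error 0.047, adjusted p = 0.0457 in edgeR), and *FCY2*, the purine-cytosine permease gene, fell by 0.24 (standard error 0.053, adjusted p = 0.0168 in edgeR). Without surrogate variables, 0 of the 39 passed there. Without the 2 libraries that go against their labels, *FCY2* also passed in YFA1131 against YFA1130 (0.16, adjusted p = 0.0746 in edgeR, where 1.24% of genes passed), *YNK1* in *RGT2(V539I)* against YFA1131 (0.20, adjusted p = 0.0981 in edgeR, where 1.82% did), and *ADE5,7*, an enzyme gene of IMP synthesis, in *OAF1(L63S)* against YFA1131 (-0.15, adjusted p = 0.0529 in edgeR, where 7.57% did). *NRD1*, the gene of the termination factor named above, did not pass in any comparison between strains, with log2 fold changes of -0.089 to 0.11, or of -0.18 to 0.16 without those libraries.

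Across harvests, in the 23 libraries, 14 of the 39 genes were lower and 2 were higher in batch 1, where 8.71% of all genes were lower and 6.89% higher, with a median log2 fold change of -0.11, against 0.0068 for all genes. Of the 9 genes of IMP synthesis, which makes the substrate of the enzymes here, 6 were lower, such as *ADE5,7* (log2 fold change -0.44, adjusted p = 0.000318 in edgeR) and *ADE13* (-0.36, adjusted p = 0.000176 in edgeR). Of the 5 PRPP synthetase genes, which supply its starting compound, 4 were lower, *PRS1* by the most (-0.33, adjusted p = 0.000167 in edgeR). *AAH1*, the adenine deaminase gene, was lower (-0.43, adjusted p = 0.000105 in edgeR), as was *NRD1* (-0.90, adjusted p = 0.000262 in edgeR). *YNK1* (0.35, adjusted p = 0.0087 in edgeR) and *ISN1*, the IMP-specific nucleotidase gene (0.18, adjusted p = 0.0755 in edgeR), were the 2 that were higher. These calls rest on leaving out the 2 libraries or the surrogate variables. With all 25 libraries and 2 surrogate variables, 0 of the 39 passed in edgeR. There, 4 had an unadjusted p under 0.05, as did 574 of all 5713 genes. In DESeq2, 0 of the 39 passed, where 80 of all genes did. Without surrogate variables, 18 were lower and 3 higher in edgeR, where 1716 of the 5713 genes were called in either direction.

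The neighbours of the members on the chromosome were also measured. *PHO12*, upstream of *IMD2*, differed by 0.27 on the log2 scale in *OAF1(L63S)* against YFA1130 (standard error 0.070, adjusted p = 0.108 in edgeR), which passed the FDR without the 2 libraries that go against their labels (0.29, adjusted p = 0.0705 in edgeR), as did 1.54% of all genes. *PHO12* and its duplicate *PHO11*, both acid phosphatase genes, had estimated counts that were not whole in 25 of 25 libraries, at 18.3 to 30.2 and 8.66 to 15.1 CPM. In YFA1131 against YFA1130, where *IMD2* differed by 0.18, *PHO12* differed by 0.15 (adjusted p = 0.50 in edgeR) and YHR219W, between *IMD2* and the chromosome end, by 0.26 (adjusted p = 0.235 in edgeR). *PHO12* passed in *OAF1(L63S)* against *OLE1(FAR)* (0.29, adjusted p = 0.0911 in edgeR), and YHR219W in *RGT2(V539I)* against *OLE1(FAR)* (0.30, adjusted p = 0.0909 in edgeR), where 3.01% and 2.45% of all genes passed. Both calls were lost without the 2 libraries that go against their labels (0.31, adjusted p = 0.125, and 0.30, adjusted p = 0.154 in edgeR). The other 10 neighbours, *PHO11*, YHR214W-A, YHR217C, YHR218W, *ATG23*, *CNA1*, *CMP2*, *SPC2*, *SKY1* and *TRS130*, passed in no comparison between strains, with or without those libraries. Beside *IMD3* and *IMD4* lie *CNA1* and *CMP2*, which encode the calcineurin catalytic subunits, and their log2 fold changes in *OAF1(L63S)* against YFA1130 were -0.0096 and -0.026. The part of these neighbours and of the chromosome end in the level of *IMD2* was not tested.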

How the data were processed

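Poly-A RNA of 25 cultures was sequenced as single-end reads of 76 bases. Per the methods of the study, the authors trimmed the reads with Trimmomatic 0.38 and pseudoaligned them with kallisto to Ensembl transcripts of sacCer3, and the deposited values are kallisto's estimated counts per gene, without normalization. Of these, 6.46% were not whole, and all were rounded.

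Genes with a count above 0 in every library were kept (5713 of 6713, *IMD1* not among them), scaled by TMM and tested with edgeR 4.0.16 (R 4.3.3, limma 3.58.1) at an FDR of 10%. The terms were strain, the 3 kinds of batch recorded by the study, and 2 surrogate variables from sva 3.50.0, fitted to all 25 libraries as in the study, which used DESeq2. edgeR replaced it as the main test, and DESeq2 1.42.0 served as an alternative. Intervals cover 95%. CPM are edgeR's counts per 1000000 of the TMM library size, and correlations used log2 CPM with a prior of 0.5. Exact permutation tests planned for neighbours in the order of strain means are not reported, because that order picks the smallest differences and the test leaves out the batches. The p-values measure the spread between cultures of 1 line per strain. The tests were checked on simulated counts.

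Each RNA isolation batch held 1 culture of every strain and was the replicate block of the model. Over 20 pairs of libraries that share such a batch, the correlation of their deviations from strain means ran from -0.47 to 0.53, and 10 were over 0.1. Replicates are numbered in the order of the deposited samples, and the number pairs nothing. Replicates of a strain differed by more than sampling noise in all 50 pairs (chi-square per degree of freedom of 5.28 to 52.1), so each was counted as its own replicate. A median depth of 11038274 estimated counts put 4096 to 19145 of them on each of the 4 members tested, so counting error was small beside the spread between cultures.

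The alternatives were another scaling, DESeq2, other count filters, no surrogate variables, no replicate block, the strains compared alone, each library left out and the 2 libraries that go against their labels left out. Leaving those 2 out together with the surrogate variables, and all alternatives for *OAF1(L63S)* against YFA1131, were added after the data were seen. The members, the gene lists and the tests were chosen with earlier results of these data known. The text names the members, listed genes that were called, the 5 genes most like each member, chromosome neighbours and strain markers. Sequences and positions are from the RefSeq R64 genome and annotation, in which 4 of the 5 members and 61 of 64 listed genes were matched.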

Additional observations from a re-analysis of the deposited data

Results flagged for a closer look

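Each of 20 groups, the 5 libraries of a strain for *IMD2*, *IMD3*, *IMD4* and *GUA1*, was searched for a library whose gap to the nearest of the others exceeded 0.71 of the whole range (Dixon's test at 95%). There were 5 such values. Chance alone gives about 1 in 20 groups, and the 4 genes of a library are not independent. The library labelled *OLE1(FAR)* replicate 3 was the lowest of its strain for *IMD2*, at 397 CPM with the nearest at 495. It was also lowest for *IMD3*, at 1069 CPM with the nearest at 1327, and for *IMD4*, at 723 CPM with the nearest at 957. *OAF1(L63S)* replicate 5 was the lowest of its strain for *IMD4*, at 723 CPM with the nearest at 938, and for *GUA1*, at 877 CPM with the nearest at 1209. Replicate 5 of *OAF1(L63S)* came from harvest batch 1. Without replicate 2, which goes against its label, it was the single *OAF1(L63S)* library of that batch.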

How the results depend on the processing

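*IMD2* stayed above YFA1130 in every alternative run, by 0.31 to 0.34 on the log2 scale in *OAF1(L63S)*, 0.18 to 0.26 in *OLE1(FAR)* and 0.15 to 0.20 in YFA1131, and by 0.30 to 0.34, 0.22 to 0.27 and 0.15 to 0.21 with each library left out in turn. These runs refit the libraries in which the difference chose the gene, so they only describe how its size depends on the settings. Its call in *OAF1(L63S)* against YFA1131 was lost in 3 of 9 alternatives and with 2 of 10 libraries left out. The differences of *IMD3*, *IMD4* and *GUA1* between strains were near 0, and their sign depended on the setting, with no call in the settings below. The exception, *GUA1* and *IMD4* in *OAF1(L63S)* against YFA1131 without 2 libraries, is given in the report. The cause of these shifts was not tested.

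Signs that changed, as log2 fold changes, were as follows. With DESeq2's size factors in edgeR, *IMD4* was 0.0046 in *OLE1(FAR)* against YFA1130, with DESeq2's own test 0.0055, and with no filter 0.00013. With at least 10 counts in every library, *IMD4* was 0.011 in *RGT2(V539I)* against YFA1131, -0.0060 in YFA1131 against YFA1130 and 0.0045 in harvest batch 1 against the others, and *IMD3* was 0.0067 in *OAF1(L63S)* and -0.010 in *OLE1(FAR)* against YFA1130 and 0.017 in *OAF1(L63S)* against *OLE1(FAR)*.

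Without surrogate variables, *IMD3* was -0.049 in *RGT2(V539I)* against YFA1131. In *OAF1(L63S)* against YFA1130, *IMD3* was 0.034, *IMD4* 0.017 and *GUA1* 0.024. In *OLE1(FAR)* against YFA1130, *IMD3* was -0.079 and *GUA1* -0.082, and in *OAF1(L63S)* against *OLE1(FAR)* all 3 were 0.11. *IMD2* in *OAF1(L63S)* against YFA1131 was 0.14 (adjusted p = 0.335 in edgeR). For harvest batch 1 against the others, *IMD2* was -0.28, *IMD3* -0.27, *IMD4* -0.35 and *GUA1* -0.33, all called. The numbers of genes called were 37 in *RGT2(V539I)* against YFA1131, 10, 5 and 4 in *OAF1(L63S)*, *OLE1(FAR)* and YFA1131 against YFA1130, 32 in *OAF1(L63S)* against *OLE1(FAR)*, 43 in *OAF1(L63S)* against YFA1131 and 1716 for harvest.

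Without the replicate block, that is, without RNA isolation batch as a term, *IMD4* was 0.025 and *GUA1* 0.0029 in *RGT2(V539I)* against YFA1131, *IMD3* -0.0027 and *GUA1* -0.0015 in *OLE1(FAR)* against YFA1130, *IMD3* -0.015, *IMD4* -0.021 and *GUA1* -0.0074 in YFA1131 against YFA1130, and *IMD3* 0.042 and *IMD4* 0.015 for harvest, with 229 genes called. The block changed no call of a member.

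Without the 2 libraries that go against their labels, *IMD3* was -0.017 in *RGT2(V539I)* against YFA1131 (104 genes called) and 0.0061 in *OAF1(L63S)* against *OLE1(FAR)*, and *IMD3* and *GUA1* were both -0.019 in *OLE1(FAR)* against YFA1130 (31 genes called). In YFA1131 against YFA1130, 71 genes were called, and in *OAF1(L63S)* against YFA1131, 433. For harvest, *IMD2* was -0.36, *IMD3* -0.33, *IMD4* -0.38 and *GUA1* -0.42, all called, with 892 genes. When surrogate variables were left out as well, *IMD3* was -0.027 in *RGT2(V539I)* against YFA1131, -0.030 in *OLE1(FAR)* against YFA1130 (*GUA1* -0.019, 32 genes called) and 0.015 in *OAF1(L63S)* against *OLE1(FAR)*, *IMD2* was 0.12 in *OAF1(L63S)* against YFA1131 (adjusted p = 0.108 in edgeR), and for harvest the 4 genes were at -0.30, -0.32, -0.41 and -0.40, with 2160 genes called.

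With the 10 libraries of the strains compared alone, which left 1 or 2 residual degrees of freedom, *IMD3* was -0.044 in *RGT2(V539I)* against YFA1131 (15 genes called), 0.016 in *OAF1(L63S)* against YFA1130 (122) and -0.11 in *OLE1(FAR)* against YFA1130 (*GUA1* -0.12, 19 genes). In *OAF1(L63S)* against *OLE1(FAR)*, *IMD3* was 0.036 and *GUA1* 0.016 (4 genes). In YFA1131 against YFA1130, 531 genes were called (33 with DESeq2's test). In *OAF1(L63S)* against YFA1131, *IMD2* was 0.14 (adjusted p = 1 in edgeR), with 0 genes called and 202 at an unadjusted p under 0.05.

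With each library left out in turn, *IMD3* ran from -0.033 to 0.023 in *OAF1(L63S)* against *OLE1(FAR)* (109 to 250 genes called) and from -0.027 to 0.0094 in *OAF1(L63S)* against YFA1130 (43 to 72). In *OLE1(FAR)* against YFA1130, *IMD3* ran from -0.027 to 0.031, *IMD4* from -0.022 to 0.034 and *GUA1* from -0.015 to 0.054 (34 to 67 genes). In *RGT2(V539I)* against YFA1131, *IMD3* ran from -0.032 to 0.057, *IMD4* from -0.031 to 0.015 and *GUA1* from -0.069 to 0.028 (15 to 52 genes). In YFA1131 against YFA1130, *IMD3* ran from -0.0097 to 0.061, *IMD4* from -0.0057 to 0.038 and *GUA1* from -0.018 to 0.061 (5 to 32 genes). *IMD2* in *OAF1(L63S)* against YFA1131 ran from 0.10 to 0.17 (99 to 469 genes).

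The isoform levels rest on reads that kallisto divided among similar sequences, so a change in *IMD2* and one in *IMD1* could not be measured apart at every base. *GUA1* does not carry this limit. The counts assigned to *IMD1* were few, at most 7.71 in a library against at least 4096 for *IMD2*.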
